A study of Mus musculus with 12 samples.

Results

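The Arp2/3 complex and the proteins that work beside it on actin were examined in bone marrow monocytic myeloid-derived suppressor cells (M-MDSCs) of young and aged mice. The set was taken by name and holds 10 genes of the 23420 in the deposited table. It has 7 subunit genes of the complex (Arpc1b, Arpc2, Arpc3, Arpc4, Arpc5, Actr2 and Actr3) and 3 genes of abundant actin regulators (Cfl1, Pfn1 and Coro1a). All 10 passed the filter on low counts, which left 9742 genes to test. RNA of CD11b+Ly6G-Ly6Chi cells was sequenced from 6 aged male C57BL/6JNIA mice of 24 months and 6 young male mice of the same strain of 6 months, with 1 library per mouse. The labels give tibia as the tissue, and they give no transgene and no treatment for either age. The study compared the ages because M-MDSCs can become osteoclasts, the cells that resorb bone.

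The Arp2/3 complex starts a new actin filament on the side of an existing filament, so that a branched network grows and pushes the cell membrane forward. Actr2 and Actr3 encode the actin-related proteins that form the base of the new filament, and the Arpc genes encode the subunits that hold them on the mother filament. Cofilin (Cfl1) severs old filaments, profilin (Pfn1) delivers actin monomers to growing ends, and coronin 1A (Coro1a) binds filaments and the complex in blood cells. Myeloid cells use this network to migrate and to engulf particles, and osteoclasts use branched actin in the podosomes of their sealing zone.

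The library totals and the markers bear on every value that follows. Totals were 8737941 to 16300374 fragments in aged and 4613239 to 9079237 fragments in young mice, and the least counted of the 10 genes, Arpc3, still had at least 844 fragments in every mouse. A list of 8 genes of the sorted monocytic population summed to 11958 to 17211 CPM (counts per 1000000 scaled fragments) in aged and 14567 to 19215 CPM in young mice, and 2 of its genes rose and 1 fell. Among them Itgam spanned 2660 to 3543 CPM and Ly6c2, a gene of the sorting antigen, 367 to 799 CPM over the 12 mice. Lyz2 spanned 8532 to 15033 CPM over the 12 mice, and the rest of the list held Csf1r at 93.1 to 205 CPM, Cd14 at 3.69 to 15.1 CPM, and Ccr2 (5.03 to 62.0 CPM over aged and 23.9 to 54.7 over young mice), F13a1 (2.57 to 44.0 CPM) and Fcgr1 (0.855 to 9.92 CPM). A list of 10 neutrophil genes summed to 140938 to 165995 CPM in aged and 90108 to 139582 CPM in young mice. These sums exceeded those of the monocytic list in every mouse, and M-MDSC is used here as the name of the sort, not as a reading of these markers. Of those 10 neutrophil genes 6 rose with age and 0 fell (0 also at an unadjusted p under 0.05, with DESeq2 and with limma-voom), and the sums of the ages did not overlap. Young mice 5 and 6 had the lowest neutrophil sums (90108 and 91521 CPM) and the highest sums of 10 cycling genes (1339 and 1306 CPM, against 712 to 878 in the other young and 388 to 865 in aged mice). The proliferation gene Mki67 spanned 63.5 to 173 CPM in aged and 229 to 674 CPM in young mice. It reached 674 and 598 CPM in young mice 5 and 6, a large part of their cycling sums. Only 2 of the 10 cycling genes, Mki67 among them, were called lower with age, and the sums of the cycling genes overlapped between the ages. A list of 10 resident macrophage genes summed to 89.3 to 1157 CPM in aged and 77.0 to 95.9 CPM in young mice, all 9 of its tested genes rose, and its gene C1qa reached 84.7 CPM in aged mouse 1 against at most 3.86 CPM in young mice. Of 8 stromal, osteoblast and endothelial genes 3 were tested and 2 rose, with sums of 19.2 to 109 CPM in aged and 10.6 to 20.9 CPM in young mice. The part of these cell types in the differences below was not tested. In sorted bulk RNA, fewer cells of a type and less RNA per cell cannot be told apart. Libraries were numbered in a series that does not mix the ages, so a batch that followed that numbering and age cannot be told apart.

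Of the 10 genes, 8 were higher in aged than in young M-MDSCs (edgeR quasi-likelihood test, Benjamini-Hochberg adjusted p under 0.05), and 0 were lower (0 also at an unadjusted p under 0.05, with DESeq2 and with limma-voom). For all genes tested, 22.4% were called higher and 23.0% lower (45.4% in either direction). In the same 8 genes every aged mouse lay above every young mouse, a separation that 9.68% of all genes showed in that direction and 21.8% in either. The median log2 fold change of the 10 genes was 0.46, against 0.006 over all genes tested. The genes took 1.19 to 1.35% of all fragments in aged and 0.872 to 1.11% in young mice. Without TMM scaling of the libraries 1682 genes were called higher and 2762 lower over the whole table, against 2185 and 2240 with it, and the same 8 genes were still called higher. With a correction for exon length, described further on, 6 of the 10 were called higher and Arpc2, Cfl1 and Pfn1 lost their calls. That corrected fit called 1695 of all 9742 genes tested higher. Without the correction, 27.8% of all tested genes within the range of exon lengths of the 10 were called higher. Without young mice 5 and 6 the same 8 genes were called, with a median log2 fold change of the 10 genes of 0.30, and among these 8 the rises of Arpc4 (0.31), Pfn1 (0.33) and Cfl1 (0.30) shrank the most in proportion.

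**Figure D1:**
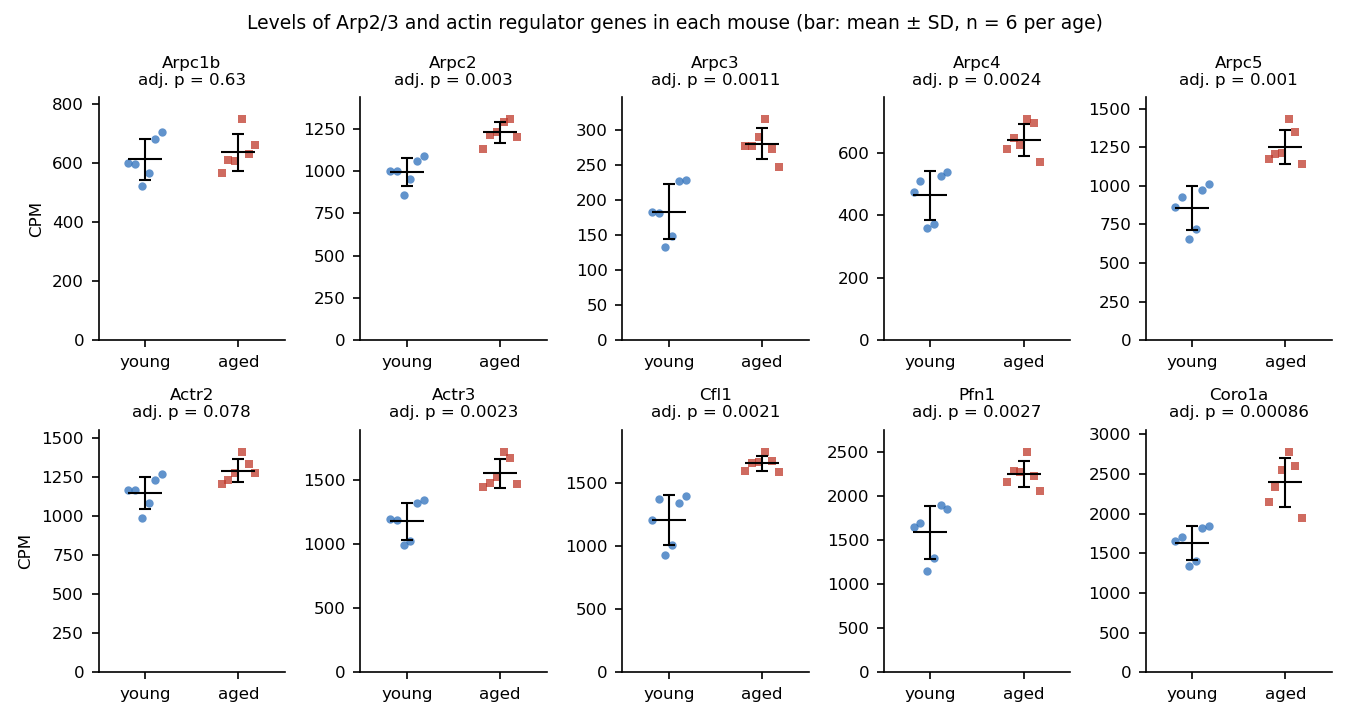
Level of each of the 10 genes in CPM (y axis, from 0) in the 6 young and 6 aged mice (points, 1 per mouse), with the mean and SD of each age (bars) and the adjusted p of the edgeR test. The ages do not overlap in 8 panels, and they overlap for Arpc1b and Actr2.

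Of the genes of the actin-related proteins, Actr3 passed the test and Actr2 did not, and their difference from each other was not tested directly. Actr3 (chromosome 1, 125392905 to 125435727 of mm10, minus strand, 12 exons) ran from 1449 through a median of 1501 to 1723 CPM in aged and from 998 through 1194 to 1345 CPM in young mice. Every aged mouse was above the highest young mouse, and Actr3 rose 1.32-fold (log2 0.40, SE 0.087, adjusted p = 0.00225 by edgeR). Actr2 (chromosome 11, 20062304 to 20112951, minus strand, 9 exons) ran from 1208 through 1280 to 1415 CPM in aged and from 987 through 1170 to 1271 CPM in young mice. The ranges of Actr2 overlapped, and its log2 difference of 0.17 (SE 0.074) missed the threshold with an adjusted p of 0.0776 by edgeR. Leaving out young mouse 10, the young mouse with the most Actr2, brought it to 0.20 with an adjusted p of 0.0457. With the correction for exon length both genes were called higher (0.39 for Actr3 and 0.24 for Actr2). Actr2 was at 0.08 without TMM scaling (adjusted p = 0.199) and at 0.07 without young mice 5 and 6 (adjusted p = 0.377).

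Among the Arpc subunits, Arpc3 and Arpc5 had the largest log2 differences without the correction for exon length, and with it Arpc3 (0.24) came below Arpc5 (0.43) and Arpc4 (0.41). Arpc3 (chromosome 5, 122391928 to 122406178, plus strand, 7 exons), a small subunit at the side of the complex, ran from 247 through 276 to 314 CPM in aged and from 133 through 182 to 228 CPM in young mice. It rose 1.53-fold (log2 0.61, SE 0.120, adjusted p = 0.00108 by edgeR), with the lowest young values in mice 5 (133 CPM) and 6 (148 CPM). Arpc5 (chromosome 1, 152766542 to 152775580, plus strand, 4 exons), which helps to hold Actr2 in the complex, ran from 1139 through 1210 to 1429 CPM in aged and from 653 through 893 to 1009 CPM in young mice. It rose 1.46-fold (log2 0.55, SE 0.106, adjusted p = 9.95e-04 by edgeR), and the aged mice again lay above all young mice.

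Arpc2 and Arpc4 form the core that clamps the complex to the mother filament. Arpc4 (chromosome 6, 113378113 to 113390447, plus strand, 6 exons) ran from 572 through 636 to 707 CPM in aged and from 359 through 492 to 540 CPM in young mice, a 1.39-fold rise (log2 0.47, SE 0.105, adjusted p = 0.00236 by edgeR). In the deposited annotation 283 of its 2271 exon bases are shared with Ttll3 on the same strand, and fragments from there could go to either gene or be left uncounted. Arpc2 (chromosome 1, 74236550 to 74268213, plus strand, 10 exons) ran from 1129 through 1221 to 1304 CPM in aged and from 856 through 998 to 1089 CPM in young mice. Its rise of 1.24-fold (log2 0.31, SE 0.071, adjusted p = 0.0030 by edgeR) was the smallest of the 8, and the gap between the ages was narrow, from 1089 to 1129 CPM.

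Arpc1b, the subunit that activators of the complex contact and the form that predominates in blood cells, stood apart. It lies on chromosome 5 (145114256 to 145128186, plus strand, 10 exons) and ran from 566 through 621 to 748 CPM in aged and from 524 through 600 to 707 CPM in young mice. The ages overlapped over most of their range, and the difference was 0.05 on the log2 scale (SE 0.086, adjusted p = 0.629 by edgeR). Its direction was not stable, with log2 differences of -0.03 without TMM scaling and -0.04 without young mice 5 and 6.

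The regulators beside the complex rose with most of its subunits. Pfn1 (chromosome 11, 70651847 to 70654650, minus strand, 3 exons) ran from 2060 through 2253 to 2507 CPM in aged and from 1157 through 1673 to 1896 CPM in young mice, a 1.42-fold rise (log2 0.50, SE 0.114, adjusted p = 0.00267 by edgeR). Cfl1 (chromosome 19, 5490455 to 5494031, plus strand, 4 exons) ran from 1585 through 1662 to 1743 CPM in aged and from 928 through 1270 to 1393 CPM in young mice, a 1.37-fold rise (log2 0.45, SE 0.099, adjusted p = 0.00207 by edgeR). The aged mice were close together for Cfl1 (SD 59.2 CPM), whereas the young mice were spread (SD 198 CPM), with mice 5 and 6 at 928 and 1008 CPM. Coro1a (chromosome 7, 126699774 to 126704754, minus strand, 11 exons) ran from 1952 through 2444 to 2782 CPM in aged and from 1338 through 1685 to 1847 CPM in young mice. It rose 1.47-fold (log2 0.55, SE 0.106, adjusted p = 8.60e-04 by edgeR), the smallest p of the 10 genes.

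Across mice the 10 genes shared parts of their order. The 7 subunit genes summed to 6412 to 7625 CPM in aged and 4511 to 6190 CPM in young mice. Young mouse 5 was lowest in all 10 genes, and aged mouse 5 was highest in every gene but Arpc2. Aged mouse 7 was the lowest aged mouse for Arpc3, Arpc4, Arpc5, Cfl1, Pfn1 and Coro1a. For Arpc1b, at 661 CPM, it was above all aged mice but mouse 5. Young mice 9 and 10, with subunit sums of 6026 and 6190 CPM, came closest to the aged mice, and these were also the young mice with the largest neutrophil sums (136039 and 139582 CPM).

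The levels of the 10 genes were compared with each other per kilobase of exon. In aged mice Pfn1 was highest at 2589 ± 172 CPM per kb (SD, n = 6), followed by Coro1a at 1500 ± 193 and Cfl1 at 1394 CPM per kb (1338 to 1472 over the mice). Within the complex, Arpc2 came first at 768 ± 40.2 CPM per kb, then Arpc5 (660 ± 59.5), Actr3 (565 ± 42.3), Arpc1b (411 ± 40.5), Actr2 (352 ± 20.3), Arpc3 (330 ± 26.02) and Arpc4 (283 ± 22.6). The young mice had the same order of means, from Pfn1 at 1829 ± 346 to Arpc4 at 204 ± 34.8 CPM per kb (SD, n = 6). Coro1a and Cfl1, neighbours in this order, did not differ beyond their spread in either age (adjusted p = 0.156 in aged and 0.719 in young mice, exact two-sided sign permutation within mice, adjusted over the 9 neighbouring pairs of an age). In young mice the same held for Arpc5 and Actr3 (adjusted p = 0.161 by the exact test) and for Arpc3 and Arpc4 (adjusted p = 0.211 by the exact test). Other neighbours kept their order in 6 of 6 mice of each age, with the smallest p this exact test can give, 0.0312 unadjusted.

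The subunits of a complex are needed in fixed proportions, so each subunit was set against the mean of the 7 in the same mouse, on the log2 scale of counts per base. Such a balance does not depend on library scaling. Arpc1b fell from 0.18 ± 0.060 in young to -0.14 ± 0.086 in aged mice (SD, n = 6), a difference of -0.32 (adjusted p = 0.00379, exact two-sided permutation test, adjusted over the 7 subunits). Its 6 young values (0.10 to 0.25) all lay above 0 and its 6 aged values (-0.21 to -0.01) all below. Actr2 fell likewise, from -0.15 ± 0.073 to -0.36 ± 0.034 (difference -0.20, adjusted p = 0.00379, exact permutation test), but with the correction for exon length its difference was -0.01 (adjusted p = 0.268, exact permutation test).

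Since each value is set against the mean of the same 7 genes, the 7 differences sum to 0, and some subunits must move opposite to others. Arpc3 rose from -0.72 ± 0.119 to -0.46 ± 0.079 (difference 0.26) and Arpc5 from 0.36 ± 0.061 to 0.54 ± 0.039 (difference 0.19), each with an adjusted p of 0.00379 by the exact permutation test and no overlap between ages. With the correction for exon length the difference of Arpc3 was -0.003 (adjusted p = 0.948, exact permutation test). Arpc4 rose by less, from -0.79 ± 0.078 to -0.68 ± 0.053 (difference 0.11, adjusted p = 0.0333, exact permutation test), and without young mice 5 and 6 its adjusted p was 0.0944. For Arpc2 (difference -0.07, adjusted p = 0.158) and Actr3 (difference 0.03, adjusted p = 0.129) the exact permutation test did not separate the ages, but with the correction for exon length it called both (-0.12 and 0.14). Leaving out young mouse 5 took the difference of Actr3 to 0.04 with an adjusted p of 0.00909 by that exact test.

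**Figure D2:**
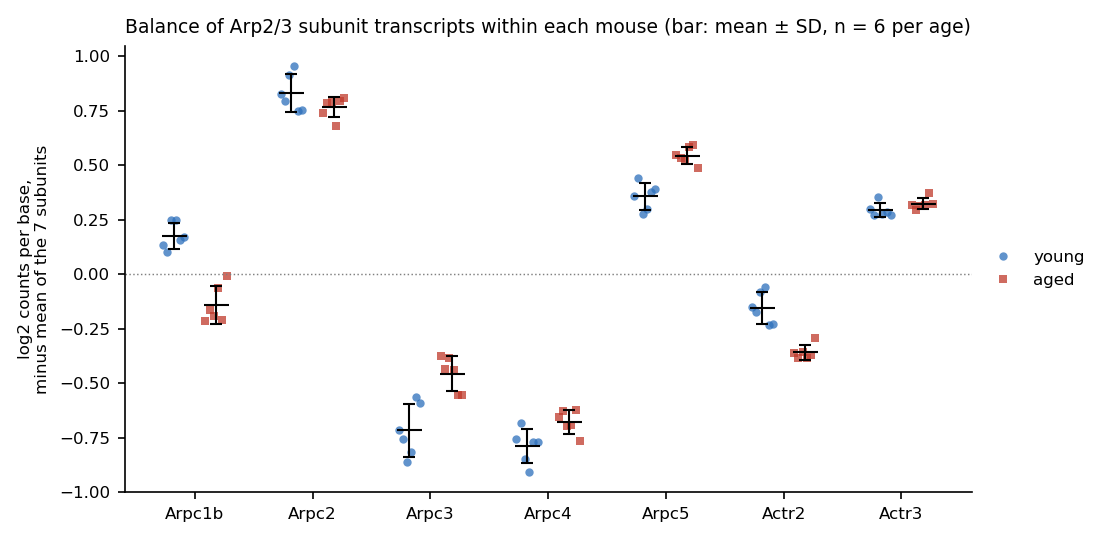
Balance of the 7 subunit transcripts within each mouse: log2 counts per base of a subunit minus the mean of the 7 (y axis), for 6 young (circles) and 6 aged mice (squares), with mean and SD (bars). Arpc1b and Actr2 lie lower and Arpc3 and Arpc5 higher in all aged than in all young mice, without the correction for exon length that ends the calls of Actr2 and Arpc3.

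Several of the 10 genes have a paralog that can take their place, and the ratio of counts per base of both copies was compared between ages for 6 pairs. Arpc1a, the broadly expressed copy of Arpc1b, is on the same strand of chromosome 5 just before it. Unlike Arpc1b, Arpc1a rose, from 66.6 ± 5.17 CPM in young to 92.3 ± 10.8 CPM in aged mice (SD, n = 6), a 1.39-fold change (adjusted p = 6.03e-04 by edgeR). The share of Arpc1b in the sum of both per base therefore moved from 90.4 ± 0.82% (89.4 to 91.2%) in young to 87.6 ± 1.43% (85.8 to 90.0%) in aged mice. The log2 ratio changed by -0.41 (adjusted p = 0.0130, exact permutation test, adjusted over the 6 pairs), with aged mouse 7 inside the young range.

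The ratio of Arpc5 to its copy Arpc5l rose, whereas Arpc5l itself did not pass the test. Arpc5l was at 11.2 ± 0.76 CPM in aged and 11.4 ± 1.55 CPM in young mice (SD, n = 6), with a log2 difference of -0.02 (SE 0.107, adjusted p = 0.898 by edgeR). The share of Arpc5 rose from 98.0 ± 0.20% to 98.7 ± 0.14%, and the log2 ratio by 0.58 (adjusted p = 0.0130, exact permutation test), without overlap between the ages. Both pairs kept these calls in every setting run, with a range of -0.47 to -0.36 for Arpc1b/Arpc1a and 0.53 to 0.62 for Arpc5/Arpc5l when each mouse was left out in turn.

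Among the regulators, Cfl1 and destrin (Dstn), which also severs and depolymerizes actin, rose together. Dstn went from 759 ± 88.5 CPM in young to 1040 ± 73.6 CPM in aged mice (SD, n = 6; log2 0.45, SE 0.083, adjusted p = 6.69e-04 by edgeR). Their ratio was 2.54-fold in young and 2.55-fold in aged mice, a log2 difference of 0.01 (adjusted p = 0.879, exact permutation test). With the correction for exon length described further on, the log2 ratio differed by -0.14 (adjusted p = 0.0130, exact permutation test). Coro1a gained on Coro1c, a coronin found in most tissues, by 0.40 (adjusted p = 0.0130, exact permutation test; 0.17 with that correction, adjusted p = 0.0455 by the exact test), and its log2 difference against Coro1b was 0.17 (adjusted p = 0.161, exact permutation test). Cfl2, the muscle cofilin, was near 8 to 10 CPM in both ages (8.15 aged, 9.64 young), and the log2 ratio of Cfl1 to it was higher by 0.67 in aged mice (adjusted p = 0.0422, exact permutation test). This call did not hold without aged mouse 2, 4, 5, 6 or 7, nor without young mouse 5 or 6 (0.51 to 0.67, adjusted p 0.0617 to 0.0942 by the exact test). Actr3b and Pfn2, the other copies considered, had at most 3 fragments in any mouse and were not tested.

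**Figure D3:**
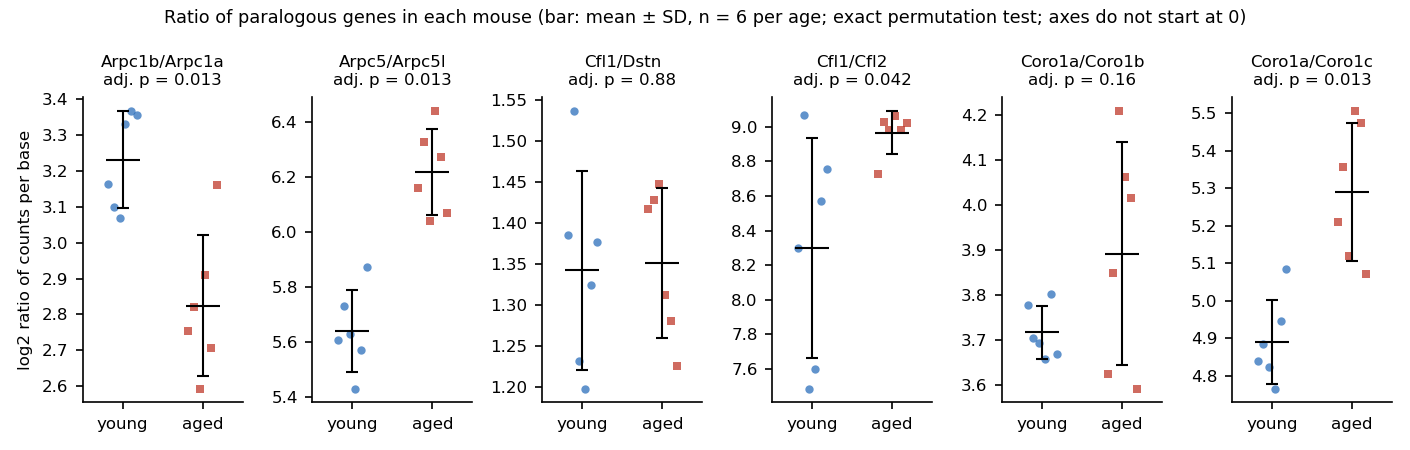
Log2 ratio of counts per base of 6 pairs of paralogs (y axes, not from 0) in 6 young and 6 aged mice (points), with mean and SD (bars) and the adjusted p of the exact permutation test. Arpc1b/Arpc1a is lower and Arpc5/Arpc5l higher in aged mice, and Cfl1/Dstn overlaps.

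The promoters of the 10 genes are shown next because 8 of the genes rose together, while Arpc1b and Actr2 did not pass the test. All 10 have an entry in the RefSeq promoter table of build GRCm38.p6 (250 bases before to 50 after the RefSeq start of the gene). The RefSeq start is not that of the deposited annotation, given above, for Arpc2 (74236517), Arpc3 (122391878) and Coro1a (126704816 and 126704220), and all positions below are counted from the RefSeq start. 5 motifs were searched on both strands, and they were chosen with results of these data known. The ETS motif CCGGAAGT was found in 4 of the 10 genes (Arpc3, Arpc4, Actr2 and Actr3), against 3.89% of the 32851 promoters of the table. The GC box GGGCGG was in 9 of 10 against 35.7% of all promoters, the CCAAT box CCAAT in 3 of 10 against 37.4%, and the CArG box, to which serum response factor binds, in 1 of 10 (Arpc4) against 1.63%. The PU.1 motif GAGGAAGT, named for a myeloid factor of the ETS family, was in 1 of 10 (Arpc1b) against 3.20%. The shares are over every promoter of the table and were not limited to genes expressed in these cells. A match describes letters in this window only.

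The stretches with an ETS or PU.1 match are given from 100 bases before to 20 bases after the RefSeq start, 5′ to 3′ on the strand of the gene, with the match in capitals. They are chr5:122391778-122391897 (plus) for Arpc3, chr6:113378013-113378132 (plus) for Arpc4, chr1:125435708-125435827 (minus) for Actr3, chr11:20112932-20113051 (minus) for Actr2, chr5:145083769-145083888 (plus) for Arpc1a and chr5:145114156-145114275 (plus) for Arpc1b.
Arpc3: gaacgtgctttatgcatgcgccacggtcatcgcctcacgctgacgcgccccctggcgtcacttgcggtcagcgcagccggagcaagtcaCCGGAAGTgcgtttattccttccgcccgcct
Arpc4: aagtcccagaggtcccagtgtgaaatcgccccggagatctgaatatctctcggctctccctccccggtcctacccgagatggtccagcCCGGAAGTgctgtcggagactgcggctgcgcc
Actr3: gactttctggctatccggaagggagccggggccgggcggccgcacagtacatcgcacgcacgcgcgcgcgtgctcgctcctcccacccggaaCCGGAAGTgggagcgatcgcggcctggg
Actr2: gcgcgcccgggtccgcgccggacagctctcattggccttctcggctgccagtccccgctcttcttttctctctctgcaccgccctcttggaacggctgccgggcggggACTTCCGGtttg
Arpc1a: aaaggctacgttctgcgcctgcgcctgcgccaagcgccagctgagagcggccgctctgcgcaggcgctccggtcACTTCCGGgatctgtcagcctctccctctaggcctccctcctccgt
Arpc1b: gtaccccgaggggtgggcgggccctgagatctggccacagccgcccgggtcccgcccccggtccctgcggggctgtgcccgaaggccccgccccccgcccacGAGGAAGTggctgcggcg
In Arpc3, Arpc4 and Actr3 the match reads forward and ends at positions -4, -5 and -1 relative to the RefSeq start. The deposited annotation starts Arpc3 downstream of it, at 122391928. In Actr2 it reads in reverse at positions 9 to 16 after the start, and in Arpc1a in reverse at positions -26 to -19. Of these 4 members 3 rose with age (Arpc3, Arpc4 and Actr3) and Actr2 did not pass the test. Arpc2, Arpc5, Pfn1, Cfl1 and Coro1a rose without the ETS letters in this window. Arpc1b, which did not pass the test, has the PU.1 letters at positions 3 to 10. The paralog Coro1c, which did not pass the test either, has the ETS letters at positions -117 to -110, outside the window printed here.

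The genes that switch the complex on or off were then counted. Of 20 tested genes of nucleation promoting factors and their complexes, 4 rose, 5 fell and 11 did not pass the test, with a median log2 fold change of -0.02. These counts are close to the shares of all genes tested (22.4% higher and 23.0% lower). Abi3, a part of the WAVE complex, showed the largest rise (5.82 to 10.8 CPM, log2 0.89, SE 0.188, adjusted p = 0.00172 by edgeR). Brk1, the smallest subunit of that complex, rose as well (91.7 to 133 CPM, log2 0.55, SE 0.130, adjusted p = 0.00368). Was, the activator restricted to blood cells, rose by 0.23 (196 to 230 CPM, adjusted p = 0.00935), whereas its broadly expressed relative Wasl fell by 0.46 on the log2 scale (22.6 to 16.5 CPM, SE 0.094, adjusted p = 0.00146). Whamm, an activator on internal membranes, fell by 0.47 (18.6 to 13.6 CPM, adjusted p = 0.0300), but its adjusted p was 0.0514 to 0.0832 when aged mouse 1, 2 or 7 or young mouse 5 or 6 was left out, and its log2 difference was -0.19 (adjusted p = 0.216) without young mice 5 and 6. The count of genes that fell was 3 without aged mouse 1 or aged mouse 2.

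Of 7 inhibitors and debranching factors, 2 rose, 1 fell and 4 (Gmfb, Pick1, Coro1c and Coro7) did not pass the test. The shares over all genes tested were 22.4% higher and 23.0% lower. Gmfg, the blood cell form of the factor that removes branches, rose from 141 to 217 CPM (log2 0.62, SE 0.134, adjusted p = 0.00193 by edgeR). Its relative Gmfb was at 81.9 CPM in young and 88.1 CPM in aged mice (adjusted p = 0.136). Coro1b rose from 143 to 185 CPM (log2 0.38, adjusted p = 0.00228), and Coro2a fell from 22.7 to 16.1 CPM (log2 -0.49, SE 0.138, adjusted p = 0.00989). Coro1c (log2 0.16, adjusted p = 0.104), Coro7 (0.09, adjusted p = 0.339) and Pick1 (-0.35, adjusted p = 0.176) were the others that missed the threshold.

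Of 3 tested actins 2 rose, and so did the genes of proteins that bind actin monomers, beside 22.4% higher over all genes tested. Actb, a cytoplasmic actin, rose from 24861 to 34944 CPM (log2 0.49, SE 0.119, adjusted p = 0.00407 by edgeR), and Actg1 from 1376 to 1694 CPM (log2 0.30, adjusted p = 0.0131). Acta2, smooth muscle actin, was at 28.9 CPM in young and 21.7 CPM in aged mice (adjusted p = 0.0892), but without young mouse 5 it fell by 0.54 on the log2 scale (adjusted p = 0.0163). All 3 tested genes of monomer binding proteins beside Pfn1 rose, namely Tmsb10 (22.6 to 41.6 CPM, log2 0.87, adjusted p = 0.00217), Tmsb4x (4201 to 6099 CPM, log2 0.54, adjusted p = 0.00920) and Cotl1 (1294 to 1658 CPM, log2 0.36, adjusted p = 0.00964). Thymosins bind actin monomers and keep them in reserve. Tmsb4x, Tmsb10 and Cotl1 have 670, 943 and 1639 exon bases. Of all tested genes of 42 to 1839 bases, 44.5% were called higher and 5.79% lower.

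Genes of filament ends and turnover were mixed, and their counts stand beside 22.4% higher and 23.0% lower over all genes tested. Of 9 capping and severing genes, 6 rose and 0 fell by edgeR (0 also at an unadjusted p under 0.05, with DESeq2 and with limma-voom), and Add1, Add3 and Rltpr did not pass the test (log2 0.07, 0.11 and -0.41, adjusted p = 0.411, 0.280 and 0.122). Capza2, a capping protein subunit, rose from 213 to 302 CPM (log2 0.50, SE 0.090, adjusted p = 5.87e-04), and Eps8 from 1.66 to 4.28 CPM (log2 1.37, SE 0.310, adjusted p = 0.00261). Of the 13 genes of the cofilin family and its kinases and phosphatases, Cfl1 aside, 5 rose and 2 fell. The kinases Limk1 and Limk2, which switch cofilin off, went opposite ways, with Limk1 higher (2.40 to 3.98 CPM, log2 0.72, SE 0.182, adjusted p = 0.00519) and Limk2 lower (89.7 to 60.7 CPM, log2 -0.56, SE 0.100, adjusted p = 5.42e-04). The other cofilin kinases of the list did not pass the test. The count of 5 was 3 without aged mouse 5 or 6 or without young mouse 5 or 6.

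Genes for unbranched filaments, crosslinking and contraction were counted next, beside 22.4% higher and 23.0% lower over all genes tested. Of 12 formins and Ena/VASP genes, which elongate straight filaments, 5 fell and 0 rose (1 at an unadjusted p under 0.05, 0 with DESeq2 and with limma-voom, and 1 without aged mouse 1). Their median exon length was 4332 bases, and genes called lower made up 23.8% of all tested genes of 2891 to 4388 bases and 50.6% of those above. Fmnl2 fell from 194 to 121 CPM (log2 -0.68, SE 0.099, adjusted p = 1.32e-04 by edgeR) and Diap2 from 179 to 125 CPM (log2 -0.51, SE 0.081, adjusted p = 2.49e-04). Of 16 crosslinkers, tropomyosins and membrane linkers 3 rose and 5 fell, and Tagln2 showed the largest rise (109 to 146 CPM, log2 0.42, adjusted p = 0.00146). Of 4 non-muscle myosin II genes 2 rose and 1 fell. The light chain Myl6 rose (301 to 431 CPM, log2 0.52, adjusted p = 0.00341) and the heavy chain Myh9 fell (4366 to 3111 CPM, log2 -0.49, adjusted p = 8.05e-04). The light chain Myl12b was at 214 CPM in young and 245 CPM in aged mice (adjusted p = 0.117), and it was called higher, by 0.25, without young mouse 10 (adjusted p = 0.0416).

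The next 4 genes, upstream of the network, were picked after their values were seen and give no tally. Cdc42 (1001 to 1475 CPM, log2 0.56, adjusted p = 0.00100 by edgeR) and Rac1 (318 to 425 CPM, log2 0.42, adjusted p = 0.00152), which switch on the activators of the Arp2/3 complex, rose. The exchange factors Dock8 (1147 to 773 CPM, log2 -0.57, SE 0.068, adjusted p = 3.33e-05) and Tiam1 (173 to 101 CPM, log2 -0.78, adjusted p = 6.68e-05) fell. Of 3 genes of serum response factor, which controls many actin genes, and its cofactors, 2 fell and 0 rose (0 also at an unadjusted p under 0.05, with DESeq2 and with limma-voom). Over all genes tested, 23.0% fell and 22.4% rose. Serum response factor was lower (Srf 63.2 to 51.5 CPM, log2 -0.30, adjusted p = 0.0187), as was its cofactor Mkl1 (420 to 349 CPM, log2 -0.27, adjusted p = 0.00529), and Mkl2 did not pass the test (log2 -0.14, adjusted p = 0.346).

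**Figure D4:**
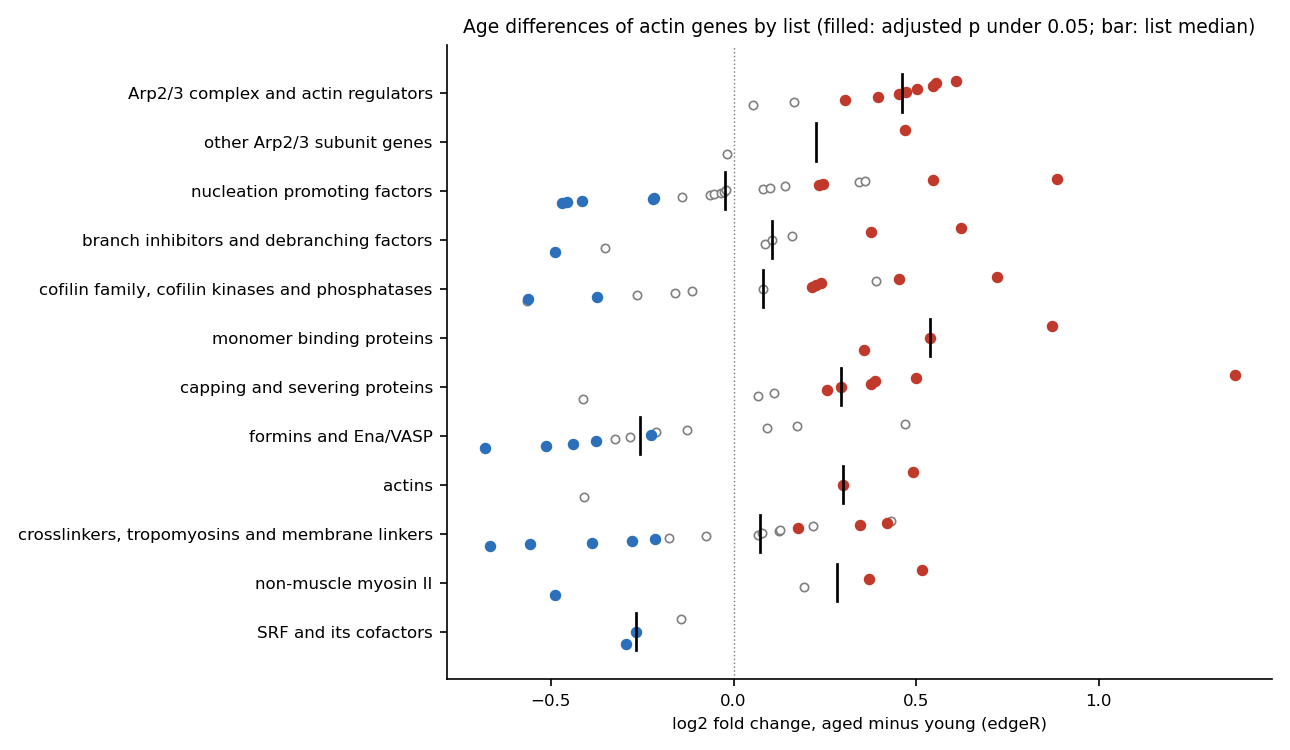
Log2 fold change from young to aged (x axis) of each tested gene in 12 lists of actin genes (rows), filled red where higher and blue where lower at an adjusted p under 0.05, open otherwise, with the list median (bar). The 10 genes of the top row lie right of 0, monomer binding, capping and most actin genes also lean right, and formins and serum response factor lean left.

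Over all other actin genes examined, 35 of 119 tested genes rose and 33 fell, with a median log2 fold change of 0.07, beside 22.4% higher and 23.0% lower over all genes tested. The count of rises was 23 without young mice 5 and 6, where that over all genes tested went from 2185 to 1392, and among the genes then no longer called by edgeR were Actg1 (log2 0.17, adjusted p = 0.0522), Was (0.16, 0.0610) and Srf (-0.26, 0.0548), the last with a fall close to that in all 12 mice. Direction went with exon length. Among the 129 tested genes, the 10 included, the 52 with fewer than 2890 exon bases, the median of all genes tested, gave 35 rises and 1 fall, and the other 77 genes gave 8 rises and 32 falls.

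The same held over the whole table, where ranked by exon length and split in 4 equal bins, 44.5% of the genes of the shortest bin were called higher and 5.79% lower, against 6.03% and 50.6% in the longest bin. The 10 genes have 848 (Arpc3) to 3669 (Actr2) exon bases, and of all 5776 tested genes in that range 27.8% were called higher and 11.7% lower. With a fit that takes out the trend with exon length, 6 of the 10 were called higher. In that fit 1695 of all 9742 genes tested were called higher and 1560 lower. Arpc3 (0.24, adjusted p = 0.0286), Arpc4 (0.41, 0.0107), Arpc5 (0.43, 0.00650), Actr3 (0.39, 0.00737) and Coro1a (0.38, 0.00895) kept their calls in that edgeR fit, and Actr2 gained one (0.24, adjusted p = 0.0499). Arpc2 (0.14, adjusted p = 0.159), Cfl1 (0.19, 0.0867) and Pfn1 (0.15, 0.181) lost theirs, Arpc1b turned to -0.12 (adjusted p = 0.296), and the median of the 10 was 0.24. Of the other genes named above, Brk1, Was, Actg1, Tmsb4x, Cotl1, Tagln2, Myl6, Myh9, Diap2, Srf and Mkl1 were no longer called with this correction, and Add3 and Gmfb were called higher. Among genes that kept their calls, the correction made the difference over 1.5 times smaller also for Dock8 (-0.20), Tiam1 (-0.42), Wasl (-0.28), Fmnl2 (-0.44), Gmfg (0.35), Tmsb10 (0.55) and Arpc1a (0.30). In the balance of subunits the same correction ended the calls of Arpc3 and Actr2, as given above, while Arpc1b stayed lower at -0.38 and Arpc5 higher at 0.19 (adjusted p = 0.00505 for both, exact permutation test), and it added calls for Arpc2 (-0.12, adjusted p = 0.0242) and Actr3 (0.14, adjusted p = 0.00505, exact permutation test). What makes short and long genes differ between the ages was not tested.

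**Figure D5:**
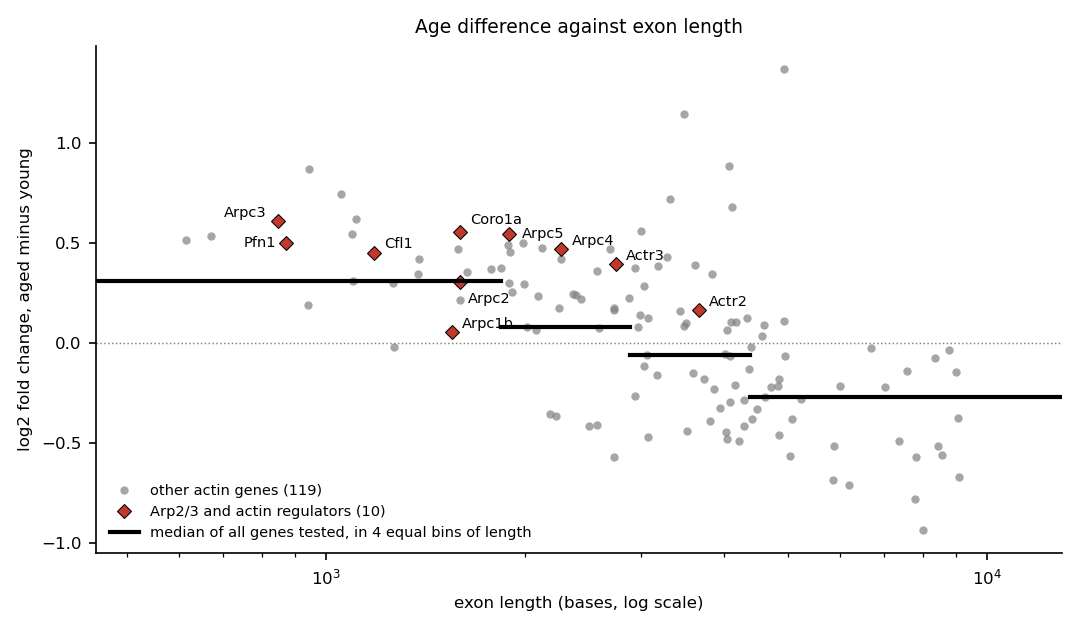
Log2 fold change from young to aged (y axis) against exon length in bases (x axis, log scale) for the 10 genes (labelled diamonds) and 119 other actin genes (grey points), with the median of all genes tested in each of 4 equal bins of length (black lines, 0.31, 0.08, -0.06 and -0.27). The 10 genes lie above the line of their bin except Arpc1b and, just below it, Arpc2.

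Over the 12 mice with the mean of each age removed, the genes whose log2 CPM followed the mean of the 7 subunit genes most closely were Ostf1 (Pearson r 0.989), Pglyrp1 (0.986), Clic1 (0.985), Pgk1 (0.985) and Hp (0.982). They are given as a description with no test, since they are the highest of all genes tested. Ostf1 encodes an adaptor first described as an osteoclast-stimulating factor, Pglyrp1 and Hp encode proteins of neutrophil granules, Clic1 a chloride channel protein and Pgk1 a glycolytic enzyme. All 5 rose with age by edgeR, by 0.41 (Ostf1, adjusted p = 0.00919) to 0.54 (Pgk1, adjusted p = 0.00127) on the log2 scale. The points share young mice 5 and 6, the lowest for the complex, and without them 3 of the 5 were still among the 5 closest genes.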

How the data were processed

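The deposited values are counts of fragments per gene, which the authors made with featureCounts 2.0.0 over the exons of a UCSC annotation of mm10. Per the file headers, fragments were counted in pairs, reverse-stranded, and kept from a mapping quality of 60 upwards, and no normalization was applied. The aligner is not given in the sources used here.

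Counts were tested with edgeR 4.0.16 in R 4.3.3 (filterByExpr, TMM factors, quasi-likelihood test, age as the only term, Benjamini-Hochberg adjustment over 9742 genes, threshold 0.05). All 12 libraries were used, and 0 sample columns were left out. CPM are counts per 1000000 of the TMM-scaled total. Paralog ratios (0.5 added to each count) and subunit balance were tested by exact two-sided permutation over mice, for which the smallest p is 0.00216. The biological coefficient of variation was 15.7%, above the counting error of these genes. No pair of libraries of an age agreed within counting noise (chi-square per gene at least 1.68 over 30 pairs). The fit was tested on simulated data.

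The 10 genes, the lists of actin genes and the markers were chosen by name with earlier results of these data known. In each list the strongest rise and fall among called genes, the gene of smallest p and, where 5 or fewer, the genes not called were named. Was, Brk1, Coro1b, Tmsb4x, Cotl1, Actg1, Diap2, Cdc42, Rac1, Tiam1, Dock8 and the markers other than Mki67 and C1qa were added after their values were seen. The results of some genes and of a list are not reported here, and their genes stay in the counts over all actin genes. Alternatives were DESeq2 1.42.0, limma-voom (limma 3.58.1), other scalings and filters, thinning, corrections for exon length and transcript GC content, a replicate block and leaving out each mouse.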

Additional observations from a re-analysis of the deposited data

Results flagged for a closer look

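In 46 groups of 6 mice (CPM of the 10 genes, 6 paralog ratios and 7 subunit balances in each age) the gap from the most extreme mouse to the next was compared with the range of its group, and 4 gaps were wider than Dixon's limit for 6 samples. Chance alone gives about 1 in 20 such groups. Aged mouse 1 had the lowest log2 ratio of Cfl1 to Cfl2 of the aged mice, 8.724, against 8.98 for the next. Aged mouse 1 also had the highest resident macrophage sum, 1157 CPM, and the part of those cells in this ratio was not tested. Aged mouse 7 had the highest balance of Actr2 among aged mice, -0.294 against -0.36 for the next, and still lay below every young mouse. Aged mouse 6 had the highest balance of Actr3 among aged mice, 0.370 against 0.32, and young mouse 5 the highest among young mice, 0.3535 against 0.30. None of the 10 genes had such an outlying mouse in its CPM.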

How the results depend on the processing

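The same 8 genes were called higher with DESeq2, with limma-voom, without TMM factors, with upper quartile scaling, with both other filters on low counts, after thinning and with each mouse left out, and Arpc2 (0.14), Cfl1 (0.195) and Pfn1 (0.145) lost their calls with the exon length correction. The cause was not tested. Actr2 was called with upper quartile scaling (0.20), with the length correction (0.24) and with a correction for transcript GC content (0.25), the last chosen after seeing the data, as was leaving out young mice 5 and 6 together. Leaving out each mouse in turn gave 0.12 to 0.20 for Actr2. Arpc1b reversed without TMM factors (-0.030), with the length correction (-0.12) and without young mice 5 and 6 (-0.043).

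Calls among the other actin genes moved more. Rises fell from 35 to 23 with the replicate block, which uses 8 libraries (33 in the same libraries without it), where Actb (0.60, adjusted p = 0.0514), Actg1 (0.38, 0.0624), Eps8 (0.91, 0.111) and Limk1 (0.56, 0.169) were among the genes no longer called by edgeR, Eps8 and Limk1 also in the same 8 libraries without it, and to 23 without young mice 5 and 6, and falls from 33 to 16 with the length correction. Genes that missed the threshold changed sign for Arpc5l (0.016 with upper quartile scaling, 0.017 with the replicate block, 0.014 in the same 8 libraries without it, 0.026 with transcript GC, and -0.089 to 0.043 with a mouse left out), Coro7 (-0.0054 without TMM factors, -0.028 with the block, -0.029 without it in the same libraries), Add1 (-0.019 without TMM factors, -7.33e-04 without young mice 5 and 6), Rltpr (0.034 without young mice 5 and 6), Myl12b (-0.14 with the length correction) and Mkl2 (0.28 with it).

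The ratio of Cfl1 to Dstn reversed with the length correction (-0.14, adjusted p = 0.0130, exact permutation test) and without young mice 5 and 6 (-0.054), and ran from -0.019 to 0.048 with a mouse left out. That of Cfl1 to Cfl2 lost its call with the length correction (0.39), after thinning (0.60) and without young mice 5 and 6 (0.29), and ran from 0.51 to 0.82 with a mouse left out. In the subunit balance the length correction reversed Arpc3 (-0.0027), ended the call of Actr2 (-0.011) and added Arpc2 (-0.12) and Actr3 (0.14). Without young mice 5 and 6 Arpc4 lost its call (0.067), Actr3 gained one (0.040), and 3 of the 5 genes closest to the complex were shared. With a mouse left out Actr3 ran from 0.019 to 0.041.

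The numbers 1, 2, 5 and 6 occur in both ages but name different mice, and deviations of mice with the same number did not go together (r -0.25 to -0.07, 0 of 8 mice closest to its own number). With this replicate block 8 of the 10 genes were called higher, and 1586 genes rose and 1860 fell over the table, against 2088 and 2306 in the same 8 libraries without it. The planned GC correction from the genome sequence was not run, since no genome was used here. Depth limits the pairs with Actr3b and Pfn2.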
